A study of Mus musculus with 3 samples.

Results

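The *Cxcl9*-positive fibroblasts of the Day 14 wound were 1011 of the 7196 fibroblasts gated in that library, of 16611 cell barcodes on Day 14 and 44693 in the whole series. A cell was gated as a fibroblast when it held at least 2000 UMIs (unique molecular identifiers, tags that let each captured transcript be counted once), at most 10% mitochondrial UMIs, at least 1.5% of its UMIs in *Dcn*, *Lum*, *Pdgfra*, *Col6a1*, *Col6a2*, *Col5a1*, *Pcolce* and *Col1a2* together, and less than 0.3% in *Lyz2*, *Tyrobp*, *Fcer1g* and *S100a9* together. Members were selected on their own measured values, as the gated cells with at least 2 *Cxcl9* UMIs. The 5485 gated cells with 0 *Cxcl9* UMIs, called *Cxcl9*-zero fibroblasts, served as the reference, and 700 cells with 1 UMI were in neither group. Because *Cxcl9* chose the members, the differences between both groups are a description and were not tested.

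The cells came from full-thickness punch wounds in the dorsal skin of male C57BL/6J mice aged 7 to 12 weeks, an inbred laboratory strain, with no further genotype or treatment given. Tissue of 4 wounds was pooled for a library, dissociated with enzymes and sequenced unsorted by droplet scRNA-Seq, with 1 library each for Days 3, 7 and 14 after wounding. The study followed with these libraries how the cell populations of the wound change during repair. The libraries held 5158, 22924 and 16611 barcodes and 38133650, 120940799 and 112713257 UMIs on Days 3, 7 and 14. With 1 library a day there was no replicate check, cells of 1 library are not replicates, and no p-value is given. All intervals are at 95% and cover counting error only. Of the 1011 members, 9 had a barcode sequence that also occurred in another library, against 130 of the 16611 barcodes of Day 14.

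CXCL9 and CXCL10 are chemokines that attract activated T cells and natural killer cells through the receptor CXCR3. Interferon gamma binds a receptor made of IFNGR1 and IFNGR2, whose kinases JAK1 and JAK2 activate transcription factors that bind a DNA element named GAS. Type I interferons act through IFNAR1 and IFNAR2 and a complex with STAT2 and IRF9, which binds the interferon-stimulated response element (ISRE). *Cxcl9* is known as a gene induced mainly by interferon gamma, often together with NF-kB, whereas *Cxcl10*, *Isg15* and the *Ifit* genes also respond to type I interferon.

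The promoters of *Cxcl9* and of 4 of the 10 genes with the highest ratios are shown because these genes lead the comparison and belong to different branches of the response. The sequences are from RefSeq (GRCm38.p6, the assembly of the mm10 build named in the submitters' processing notes). Each line gives the 250 bases before the annotated start, 5′ to 3′ on the strand of the gene, and capitals mark matches of ISRE (GAAANNGAAA on either strand). The search also covered the 50 bases after the start and the GAS motif (TTCNNNGAA), which had no match in these 5 genes. *Cxcl9* lies at chr5:92328080-92328329 (minus strand), *Cxcl10* at chr5:92348890-92349139 (minus), *Gbp2* at chr3:142620413-142620662 (plus), *Isg15* at chr4:156200819-156201068 (minus) and *Ifit1* at chr19:34640639-34640888 (plus).
Cxcl9: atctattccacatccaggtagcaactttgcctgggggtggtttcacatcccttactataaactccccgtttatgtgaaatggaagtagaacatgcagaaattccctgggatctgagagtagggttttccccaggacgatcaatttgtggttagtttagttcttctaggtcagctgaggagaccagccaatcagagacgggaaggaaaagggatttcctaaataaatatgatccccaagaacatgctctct
Cxcl10: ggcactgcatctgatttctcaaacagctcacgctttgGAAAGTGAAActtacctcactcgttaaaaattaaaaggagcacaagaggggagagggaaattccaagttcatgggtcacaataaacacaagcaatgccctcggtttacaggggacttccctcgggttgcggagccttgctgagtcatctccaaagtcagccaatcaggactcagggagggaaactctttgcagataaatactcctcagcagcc
Gbp2: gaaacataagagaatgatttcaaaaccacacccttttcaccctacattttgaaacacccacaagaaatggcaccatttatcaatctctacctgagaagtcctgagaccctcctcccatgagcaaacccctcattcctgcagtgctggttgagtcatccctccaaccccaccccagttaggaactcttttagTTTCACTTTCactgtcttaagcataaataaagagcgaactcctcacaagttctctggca
Isg15: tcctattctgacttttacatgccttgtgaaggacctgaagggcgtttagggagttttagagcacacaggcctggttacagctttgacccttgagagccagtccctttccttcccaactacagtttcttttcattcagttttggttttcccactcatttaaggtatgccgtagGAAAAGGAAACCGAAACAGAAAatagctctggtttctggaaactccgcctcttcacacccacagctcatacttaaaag
Ifit1: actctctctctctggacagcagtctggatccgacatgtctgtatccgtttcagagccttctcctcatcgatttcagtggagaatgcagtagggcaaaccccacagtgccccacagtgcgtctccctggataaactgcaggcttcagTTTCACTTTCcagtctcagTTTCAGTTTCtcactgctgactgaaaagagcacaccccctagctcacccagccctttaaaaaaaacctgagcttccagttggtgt
*Ifit1* held 2 ISRE matches, *Cxcl10* and *Gbp2* 1 each, and *Isg15* 3 that overlap one another in 1 run. Neither motif was found in the window of *Cxcl9*, which says only that these letters are not in it. Of the 15 genes with the highest ratios, 10 had a promoter in the table (*Iigp1*, *Rnd1*, *Gm49257*, *Cxcl5* and *Parp14* had none), and 6 of the 10 held an ISRE match and 0 a GAS match. Of these 6, *Ifit1*, *Ifit3* and *Irgm1* were under 20 CPM in the reference and were compared only through the members. Of other genes searched, *Gbp5* held 2 GAS matches and 1 ISRE match, *Irf1* 1 GAS match and *Rsad2* 1 ISRE match. Of the 15 genes with the lowest ratios, 12 had a promoter, 1 with ISRE and 2 with GAS. Over all 32851 promoters of the table, 3.44% held ISRE and 8.30% held GAS. As the genes were chosen by their ratios, the counts are a description, and no enrichment was tested.

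*Cxcl9* was unevenly spread among the members. They held a median of 5 *Cxcl9* UMIs (quartiles 3 and 12, highest 84), and 251 of them (24.8%) had exactly 2. The 134 members with 20 or more UMIs made up 13.3% of members and held 48.7% of their *Cxcl9* UMIs. All members together held 10012 of the 12143 *Cxcl9* UMIs of the Day 14 library, or 82.5%, a level of 721 CPM (the share of a gene in the summed UMIs of a group, on the usual CPM scale). Just outside the threshold, cells with 1 *Cxcl9* UMI had 425 CPM of *Cxcl10* and 61.3 CPM of *Gbp2*. Just inside it, cells with 2 had 522 CPM and 91.3 CPM.

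Cells were deeper in the group chosen for a UMI. Members had a median of 13071 UMIs and 3143 genes, and *Cxcl9*-zero fibroblasts 9952 UMIs and 2641 genes. The median mitochondrial share was 1.43% in members and 1.61% in the reference, and *Gm42418*, a transcript that overlaps ribosomal RNA, took 4.49% and 5.80% of UMIs. The median share of the 8 gate genes was 4.86% and 5.09%, and the lowest cell stood at 1.53% in members and 1.502% in the reference, at the 1.5% limit. *Pdgfra*, the PDGF receptor of fibroblasts, stood at 155 CPM in members and 154 CPM in the reference, and *Dcn*, a small matrix proteoglycan, at 7375 and 7647 CPM.

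Of 4957 genes with a mean of at least 20 CPM over both groups, *Cxcl9* and the 12 gate genes aside, 22 were at least 2-fold higher in *Cxcl9*-positive fibroblasts (0.444% of the genes compared) and 20 at least 2-fold lower (0.403%). At 1.5-fold, 92 genes were higher (1.86%) and 52 lower (1.05%). The 2-fold counts depended on the setting: 14 higher and 22 lower when scaled without the 50 most abundant genes. They were 26 and 9 when cells with markers of other classes were left out. That setting still kept cells with UMIs of *Ndufa4l2*, a gene of the pericyte marker list. The median log2 ratio over all 4957 genes was 0.046, and 63.1% of them lay above 0. Of the 22 higher genes 11 had a reference level under 20 CPM and so passed this limit only through the members, and of the 20 lower genes 14 passed only through the reference. The 22 higher genes were led by interferon-stimulated genes, chemokines and GTPases, and the 20 lower ones by *Gal*, *Ppp1r14a* and *Igfbp2*.

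*Cxcl10* stood at 1019.7 CPM (14150 UMIs) in members and 228 CPM (12900 UMIs) in *Cxcl9*-zero fibroblasts, a ratio of 4.46 (log2 2.16, interval 2.12 to 2.19). After each cell was thinned to 2000 UMIs, 58.3% of members and 18.3% of the reference still held a *Cxcl10* UMI. So *Cxcl10* was common in members, but it was also detected in many fibroblasts without *Cxcl9* UMIs. Among epithelial cell-like cells the thinned share was 3.96%. That class held only cells with few fibroblast gene UMIs, so its share is no measure of free fibroblast RNA. The part of free RNA in the *Cxcl10* counts was not tested. The list of chemokines and cytokines of the interferon response held 14 genes, of which 4 were compared, 1 was 2-fold higher and 0 were lower, with a median log2 ratio of 0.83. Beside *Cxcl10* these were the monocyte attractants *Ccl2* (2299 against 1226 CPM), *Ccl7* (3036 against 1808 CPM) and *Ccl8* (329 against 215 CPM). *Ccl5*, another chemokine for T cells, was too low to be compared, at 6.49 CPM in members and 7.95 CPM in the reference. *Cxcl11* and *Ccl13* of this list are not in the table.

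Several interferon-induced GTPases were among the genes with high ratios. Guanylate-binding proteins and immunity-related GTPases restrict microbes inside cells. *Gbp2* was at 143 CPM in members and 56.8 CPM in the reference (log2 1.33, interval 1.25 to 1.41), with a UMI in 20.6% and 9.08% of thinned cells. Thinned epithelial cell-like cells held it in 1.98%, a share that, as for *Cxcl10*, is no measure of free fibroblast RNA. *Gbp7* was at 41.5 against 21.1 CPM (log2 0.97). *Gbp5* and *Gbp3*, under the limit of 20 CPM, stood at 29.2 against 7.63 CPM and 23.3 against 9.46 CPM. Of the 11 guanylate-binding proteins listed, 2 were compared and 1 was 2-fold higher, and *Gbp2b*, *Gbp4*, *Gbp8* and *Gbp10* had 6 UMIs or fewer each in members. Of the 11 immunity-related GTPases listed, 4 were compared and 4 were over 2-fold higher (median log2 ratio 1.41), but 3 of these passed the limit of 20 CPM only through the members. *Iigp1*, the 1 gene above it in both groups, led them at 257 against 62.9 CPM (log2 2.03, interval 1.96 to 2.10), and it was seen in 27.4% of thinned members and 8.15% of thinned reference cells. *Irgm1* stood at 30.1 against 11.1 CPM, *Ifi47* at 30.3 against 11.7 CPM and *Irgm2* at 28.4 against 14.1 CPM. Both families hold near-identical copies, so reads may be missing or misplaced between their members.

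Type I interferon effectors made up the longest of the lists. Of 48 genes, 25 were compared, 5 of them 2-fold higher and 0 lower, with a median log2 ratio of 0.66. Of the 25 genes 7 passed the limit of 20 CPM only through the members, among them 4 of the 5 that were 2-fold higher, so that *Isg15* was the 1 such gene above it in both groups. *Ifit1*, which binds foreign RNA caps, had the highest ratio of all genes compared: 49.0 CPM in members and 7.28 CPM in the reference, or 6.73-fold (log2 2.75, interval 2.57 to 2.93). It was still sparse, with a UMI in 240 of the 1011 members. *Ifit3* stood at 35.7 against 11.2 CPM, and *Isg15*, a ubiquitin-like modifier, at 95.4 against 30.4 CPM (log2 1.65). *Oasl2* and *Phf11d* were the other members of the list above 2-fold, at 28.7 against 13.7 CPM and 29.3 against 12.2 CPM. *Bst2*, which tethers virus particles to the membrane, was at 217 against 118 CPM. The abundant members of the list differed less: *Ifitm3* was at 1726 against 1258 CPM (log2 0.46) and *Ifitm2* at 1064 against 991 CPM (log2 0.10). *Rsad2*, under the limit of 20 CPM, stood at 20.8 against 3.77 CPM.

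**Figure D1:**
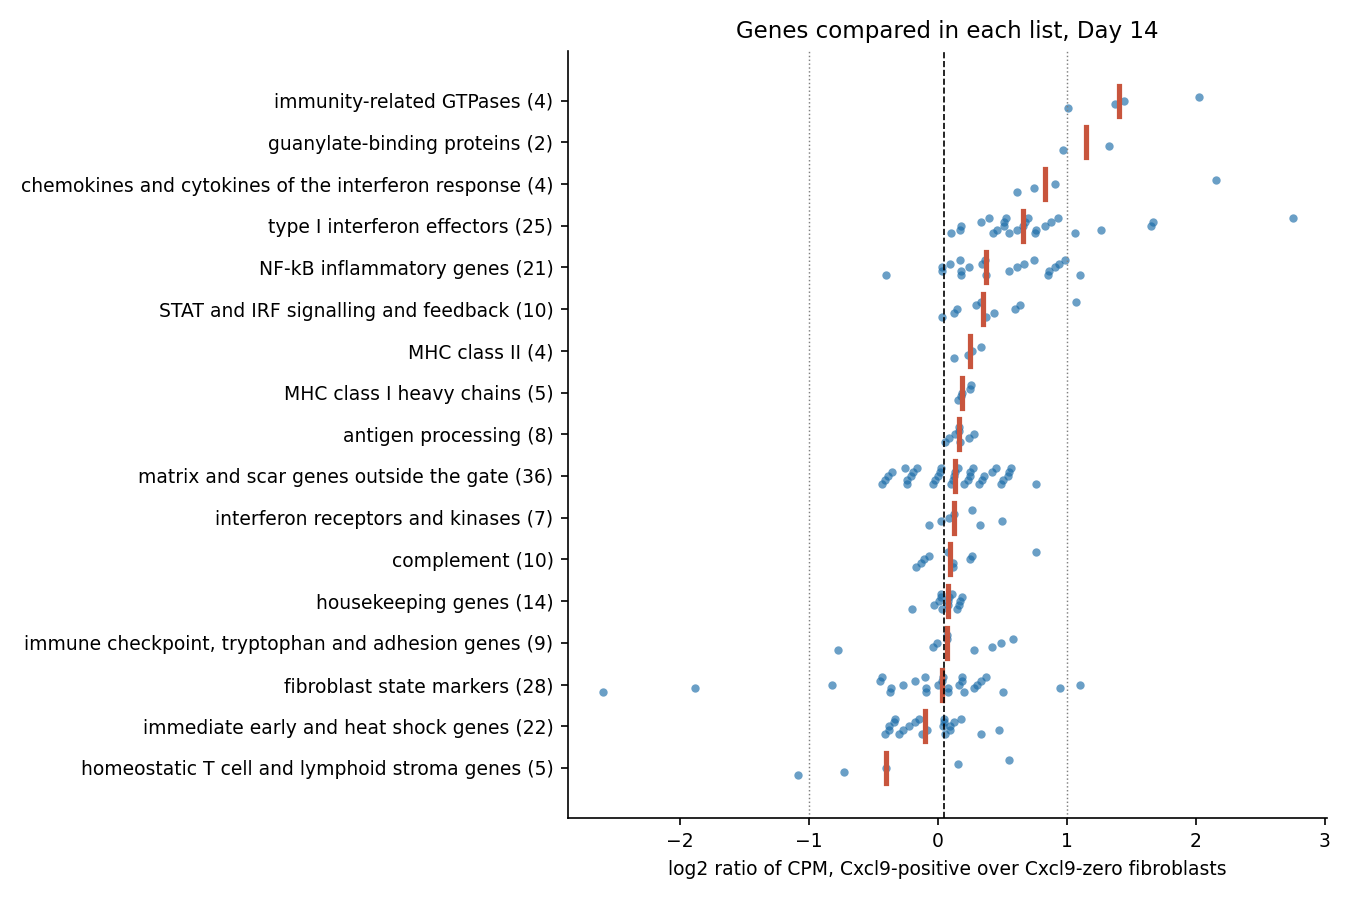
Each point is 1 gene compared, placed by its log2 ratio of CPM in *Cxcl9*-positive over *Cxcl9*-zero fibroblasts of Day 14. Red bars are list medians, the dashed line is the median of all 4957 genes (0.046), dotted lines mark 2-fold, and numbers in brackets are genes compared. Immunity-related GTPases (median 1.41) stand at the top and homeostatic T cell and lymphoid stroma genes (median -0.40) at the bottom. Of these, 3 of the 4 GTPases passed the limit of 20 CPM only through the members, and 2 of the 5 lymphoid stroma genes only through the reference.

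Signalling genes had mostly smaller ratios, with exceptions. *Irf1*, a transcription factor induced by interferon, was at 291 against 215 CPM (log2 0.44), and *Socs1*, a feedback inhibitor of the JAK kinases, at 136 against 90.0 CPM (log2 0.60). Of the 10 STAT and IRF genes compared 1 was 2-fold higher, against 0.444% of all genes. It was *Parp14*, at 59.6 against 28.4 CPM, and the list median was 0.35. *Irf7*, which amplifies type I interferon, was under the limit of 20 CPM at 27.0 against 10.5 CPM.

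None of the 7 receptor and kinase genes compared reached 2-fold in either direction (median 0.13). Over all genes 0.444% were 2-fold higher and 0.403% lower, so a count of 0 does not set this list apart. *Ifngr1* was at 67.7 against 71.1 CPM (log2 -0.07, interval -0.18 to 0.03) and *Ifngr2* at 43.7 against 43.0 CPM. Transcripts of both receptor chains thus stood at like levels in both groups, and the proteins were not measured. *Jak2* was at 67.0 against 47.5 CPM (log2 0.50).

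Antigen presentation, the process by which cells show peptides to T cells, held 0 genes at 2-fold in any of its 3 lists. Of all genes 0.444% were 2-fold higher and 0.403% lower. The 5 MHC class I genes compared had a median log2 ratio of 0.19, with *H2-K1* at 510.0 against 447 CPM and *B2m*, the shared light chain, at 631 against 531 CPM. The 8 antigen processing genes had a median of 0.16, with the immunoproteasome subunit *Psmb8* at 41.4 against 34.0 CPM. The 4 MHC class II genes had a median of 0.25, with *Cd74* at 229 against 182 CPM. *Ido1* had 0 UMIs in either group (upper limit 0.266 CPM in members and 0.0653 CPM in the reference), and *Cd274*, which encodes PD-L1, had 45 UMIs in members and 104 in the reference, or 3.24 against 1.84 CPM. Checked against its lists, the label of an interferon response had 1 of 4 chemokines, 1 of 2 guanylate-binding proteins, 4 of 4 immunity-related GTPases and 5 of 25 type I effectors at 2-fold, against 0.444% of all genes. As 3 of these GTPases and 4 of these effectors passed the limit of 20 CPM only through the members, the counts are no support for the label. *Cxcl10*, *Gbp2*, *Iigp1* and *Isg15* were above that limit in both groups. MHC class I, the immunoproteasome and *Ido1*, also textbook targets of interferon gamma, differed little over all members or were absent.

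Interferon transcripts themselves were nearly missing. *Ifng* had 1 UMI in members and 3 in *Cxcl9*-zero fibroblasts, and *Ifna2* had 0 in both groups. *Ifnb1*, the gene of interferon beta, had 8 UMIs in 4 members, 5 of them in 1 cell, and 1 UMI in the reference (ratio 32.6, counting interval 4.36 to 1444).

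Inflammatory genes that NF-kB is known to drive had ratios mostly above 1 and under 2. Of 25 such genes 21 were compared and 1 was 2-fold higher, against 0.444% of all genes. On the log2 scale 20 lay above 0 (95.2%, against 63.1% of all genes), with a median log2 ratio of 0.37. *Cxcl1* and *Cxcl2*, which attract neutrophils, stood at 4541 against 2421 CPM and 3129 against 1633 CPM. *Il6* was at 508 against 256 CPM (log2 0.99) and *Tnfaip2* at 431 against 237 CPM. *Cxcl5* was the 1 gene past 2-fold, at 28.2 against 13.2 CPM, from 59 members. It passed the limit of 20 CPM only through the members. Inhibitors of the pathway differed less, with *Nfkbia* at 1967 against 1661 CPM and *Tnfaip3* at 189 against 146 CPM. *Csf2*, under the limit of 20 CPM, stood at 12.2 against 3.81 CPM and came from 38 members.

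Genes on no list were also among the highest. *Rnd1*, a small GTPase that loosens the actin skeleton, was at 110.2 CPM in members and 37.3 CPM in the reference (log2 1.56, interval 1.47 to 1.66), from 420 members. *Dlk1*, a Notch-related membrane protein of fetal mesenchyme and preadipocytes, was at 118 against 40.2 CPM (log2 1.56), and *H19*, an imprinted noncoding RNA, at 104 against 49.6 CPM. *Ptx3*, a soluble pattern recognition protein, was abundant in both groups and stood at 1509 against 753 CPM. *Cxcl3* was at 52.0 against 22.8 CPM from 96 members, and the highest single member held 65 of its 721 UMIs. The others were *Gm49257* (31.5 against 13.7 CPM), *Plau*, the urokinase protease (29.3 against 14.2 CPM), *Plscr1* (49.3 against 24.4 CPM), *Serpinb2* (32.4 against 16.0 CPM) and *Adora2b*, an adenosine receptor (35.4 against 17.8 CPM). *Gm49257*, *Plau*, *Serpinb2* and *Adora2b* passed the limit of 20 CPM only through the members.

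**Figure D2:**
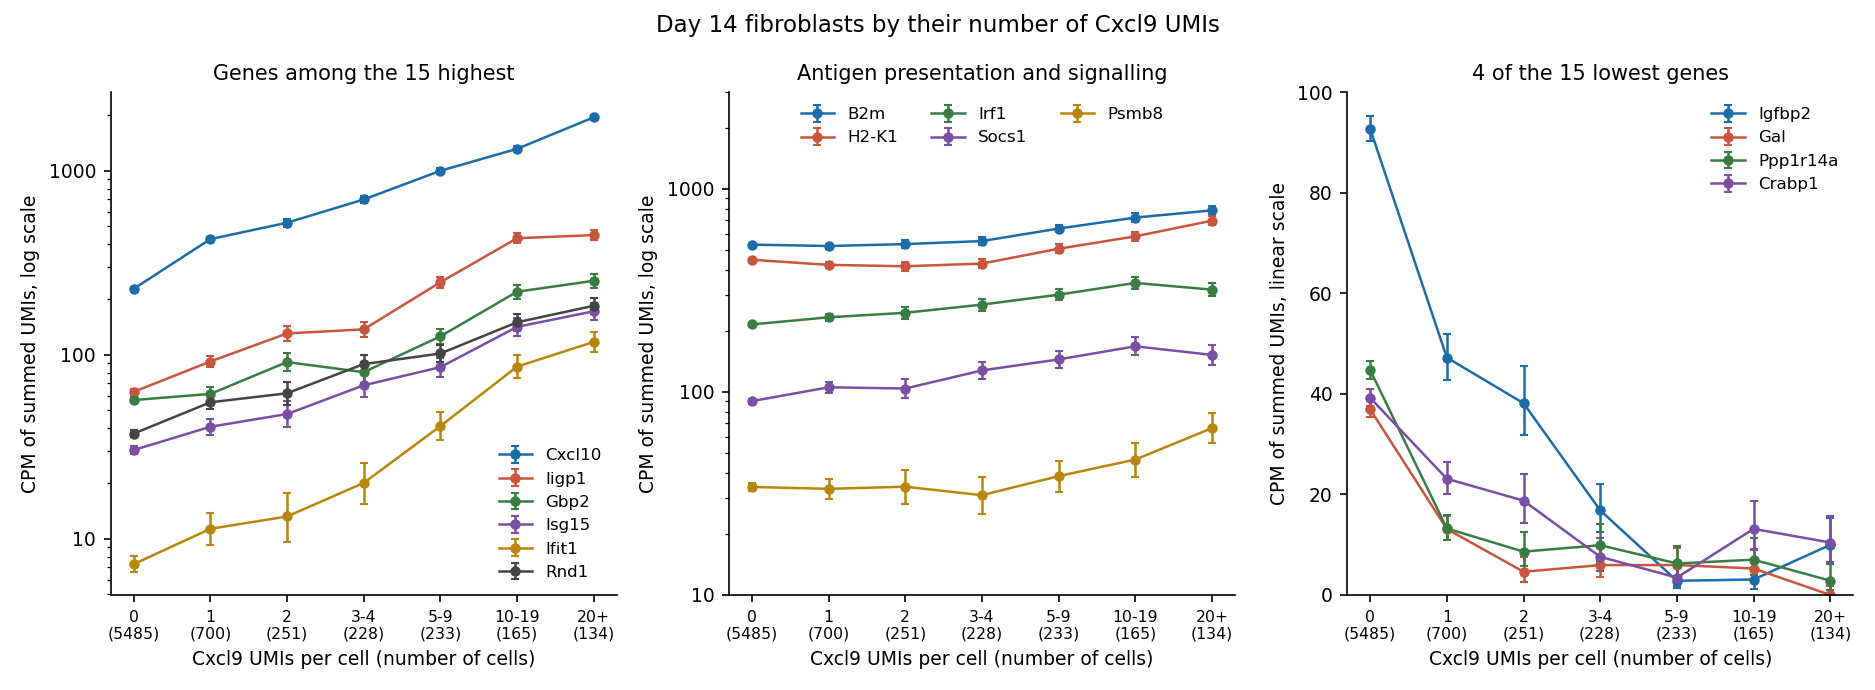
CPM of summed UMIs (vertical axis) in gated Day 14 fibroblasts grouped by their number of *Cxcl9* UMIs (horizontal axis, cells in brackets), with exact Poisson intervals for counting error. The left panel climbs in nearly every step (*Cxcl10* from 228 to 1954 CPM), *H2-K1* in the middle panel goes from 447 to 697 CPM, and the 4 genes on the right are lower in all groups with 2 or more *Cxcl9* UMIs than with 0.

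Summed levels of several genes were higher the more *Cxcl9* UMIs the cells held, a description that uses the counts which chose the members. *Cxcl10* stood at 228, 425, 522, 699, 1001, 1317 and 1954 CPM in cells with 0, 1, 2, 3 to 4, 5 to 9, 10 to 19 and 20 or more *Cxcl9* UMIs. The share of cells with a *Cxcl10* UMI went from 33.0% to 94%, and such sums do not tell a graded level from a growing share of cells. *Iigp1* went from 62.9 to 447 CPM between the first and the last of these groups, *Isg15* from 30.4 to 172 CPM, *Ifit1* from 7.28 to 118 CPM and *Gbp2* from 56.8 to 253 CPM. MHC class I was flat at low *Cxcl9* and higher only in the upper groups: *H2-K1* was at 447 CPM with 0, 416 CPM with 2 and 697 CPM with 20 or more. *Psmb8* followed the same course, at 34.0, 34.1 and 66.3 CPM. *Csf2* went from 3.81 to 31.7 CPM. Of genes that were lower, *Fos*, an immediate early gene, went from 2073 to 1057 CPM and *Col1a1* from 55019 to 40609 CPM. Depth also differed along these groups, from a median of 9952 UMIs with 0 to 14932.5 with 20 or more.

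Detection of several interferon genes in the same cell depended on depth. Of *Cxcl10*, *Gbp2*, *Iigp1*, *Isg15* and *Ifit1*, all 5 were seen in 136 members (13.5%, interval 11.4 to 15.7) and none in 86 (8.51%). In *Cxcl9*-zero fibroblasts all 5 were seen in 41 cells (0.747%) and none in 2097 (38.2%). After thinning to 2000 UMIs, exactly 3, 4 and 5 of the genes were seen in 98, 45 and 9 of the 1011 members and in 84, 16 and 0 of the 5485 reference cells, where 0 allows a share of up to 0.0672%. Among members with 20 or more *Cxcl9* UMIs, 33.6% held all 5 genes at full depth, and among members with exactly 2 UMIs 3.98% did. A gene with 0 UMIs in a cell may still be expressed there. These 5 genes were chosen after their values were seen.

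The lowest ratios belonged to genes of varied function. *Gal*, the neuropeptide galanin, was at 4.61 CPM in members and 36.9 CPM in the reference (log2 -3.00, interval -3.38 to -2.64). *Ppp1r14a*, an inhibitor of myosin phosphatase, was at 7.21 against 44.7 CPM, and *Igfbp2*, a binding protein of insulin-like growth factors, at 15.3 against 92.7 CPM. *Crabp1*, a retinoic acid binding protein of dermal fibroblasts, was at 10.6 against 39.2 CPM, and *Ndufa4l2*, also on the pericyte marker list, at 36.2 against 146 CPM. Transcription factors *Bcl11b* and *Trps1*, the guidance cue *Ntn1*, *Kazald1*, *Cyp2f2*, *Tmem47*, *C7*, *Pcolce2*, *Ccl19* and *Adh7* completed the 15 lowest, with log2 ratios from -1.38 to -1.06. Some were widespread in the reference, with a UMI of *Pcolce2* in 48.5% and of *Tmem47* in 27.2% of its cells. When cells with markers of other classes were left out and the 20 CPM limit was applied again, 2 of the 15 were again among the lowest 15. Genes that fell under the limit could not rank there. The setting did not remove every cell with a marker UMI, since *Ndufa4l2* of the pericyte list was still counted in both groups. *Igfbp2* was then at -3.02, *Ppp1r14a* at -1.91, *Bcl11b* at -1.87, *Trps1* at -1.47, *Ndufa4l2* at -1.40, *Ntn1* at -1.34, *C7* at -1.31 and *Gal* at -1.22. *Cyp2f2* was at -0.998, *Crabp1* at -0.94, *Kazald1* at -0.80, *Tmem47* at -0.61, *Pcolce2* at -0.25, *Adh7* at -0.07 and *Ccl19* at 0.0016. The lowest genes themselves ranged widely with the processing, *Gal* from -4.83 without doublet calls to -1.22 without cells carrying markers of other classes, *Ppp1r14a* from -4.69 to -1.91 in the same settings and *Crabp1* from -3.65 to -0.77, so for these 3 genes the direction but not the size of the difference held in the settings tried.

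Cells with UMIs of at least 2 of *Igfbp2*, *Gal*, *Ppp1r14a* and *Crabp1* numbered 697, a set defined by genes picked for low values in members, so its values are a description and support nothing. Of them 30 were members (4.30%, interval 2.92 to 6.09), against 981 of the other 6499 gated cells (15.1%, 14.2 to 16.0). Their median depth was 11482 UMIs against 10490. *Cxcl9* stood at 27.1 CPM in them and 148 CPM in the rest, and *Cxcl10* at 122 and 422 CPM. Without these cells in either group, and with the 20 CPM limit applied again, 16 genes were 2-fold higher and 2 were 2-fold lower, in place of 22 and 20. The count of 2 leaves out genes that fell under the limit. *Ndufa4l2* was still at log2 -1.76, *Ntn1* at -1.36, *C7* at -1.21 and *Bcl11b* at -1.19. *Trps1*, *Cyp2f2*, *Kazald1*, *Pcolce2*, *Tmem47*, *Adh7* and *Ccl19* lay between -0.97 and -0.59. The log2 ratio of *Cxcl10* was then 2.04 and that of *Ifit1* 2.67, *Crabp1* moved from -1.89 to -0.77, *Igfbp2* from -2.60 to -2.24, *Ppp1r14a* from -2.63 to -2.19 and *Gal* from -3.00 to -2.78.

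Matrix genes outside the gate showed no common direction. Of 40 genes 36 were compared and 0 reached 2-fold, where 0.444% of all genes were higher and 0.403% lower. On the log2 scale 23 lay above 0 (63.9%, near the 63.1% of all genes), with a median log2 ratio of 0.13. The summed level was 137524 CPM in members and 148085 CPM in the reference. *Col1a1*, the main collagen of scar, was lower at 43006 against 55019 CPM, *Col3a1* was at 34182 against 33560 CPM, and *Postn*, *Col14a1* and *Timp1* were higher at 4526 against 3048 CPM, 1736 against 1191 CPM and 689 against 406 CPM. The median was below 0, at -0.03, when cells with markers of other classes were left out.

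Cells with markers of several fibroblast states held members, in unequal shares. *Pi16* and *Dpp4*, markers of universal fibroblasts, were at 260.1 against 277 CPM and 118 against 105 CPM, and *Cilp*, a matrix protein of late wound fibroblasts, at 552 against 480.2 CPM. *C3* of the complement system was at 122 against 137 CPM. Among thinned cells with a *Pi16* UMI 15.1% were members, among those with *Cilp* 15.3%, with *C3* 15.7% and with *Lrrc15*, a myofibroblast marker, 15.1%, against 14.0% of all gated cells. The share was 9.87% (7.60 to 12.54) with *Tnmd*, a tendon-type marker, and 23.4% (17.6 to 29.9) with *Acta2*, the actin of myofibroblasts. With *Cxcl5*, which passed the limit of 20 CPM only through the members, it was 28.3% (20.2 to 37.6). *Dlk1* at 28.7% (24.7 to 33.0) and *Rnd1* at 32.3% (28.4 to 36.5) are not on the list of state markers. Both were picked for high ratios in members, so their high shares followed from that choice. Among cells with *Postn* 15.7% were members, and among cells without it 2.497%. *Acta2* was at 40.8 against 21.2 CPM and *Rgs5*, a pericyte marker, at 35.2 against 20.3 CPM. Both were highest in cells with 3 to 4 *Cxcl9* UMIs (78.8 and 64.3 CPM). Cells with 20 or more stood at 26.1 CPM of *Acta2* (interval 19.6 to 33.9), which holds the level of the *Cxcl9*-zero group. Their *Rgs5* was at 3.79 CPM (1.64 to 7.47), below that group. Of the 5 lymphoid stroma genes compared, *Ccl19* was 2-fold lower at 18.7 against 39.7 CPM (against 0.403% of all genes) and 0 were 2-fold higher, with a median of -0.40. *Ccl19* passed the limit of 20 CPM only through the reference. Its log2 ratio was 0.0016 when cells with markers of other classes were left out. Complement (10 compared, median 0.10), checkpoint and adhesion genes (9 compared, median 0.07), immediate early and heat shock genes (22 compared, median -0.10) and housekeeping genes (14 compared, median 0.08) held 0 genes at 2-fold in either direction. With 0.444% of all genes 2-fold higher and 0.403% lower, 0 does not set these lists apart. *Cfb*, complement factor B, was at 89.0 against 52.5 CPM.

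The same contrast could be read in the other 2 libraries, whose cells took no part in choosing the genes. The Day 3 gate held 367 fibroblasts, 51 of them with at least 2 *Cxcl9* UMIs (13.9%, interval 10.52 to 17.9). On Day 7 there were 289 such cells among 6722 (4.30%, interval 3.83 to 4.81), against 14.0% (13.3 to 14.9) for Day 14. Day 3 cells were deeper, with a median of 45643 UMIs against 10557.5 and 10578.5. After thinning to 2000 UMIs the Day 3 share with a *Cxcl9* UMI was 4.09% (2.31 to 6.65), the Day 7 share 3.30% (2.89 to 3.76) and the Day 14 share 10.3% (9.64 to 11.1). The level over all gated cells was 36.9, 24.5 and 135 CPM. So *Cxcl9* was highest in the Day 14 library on each scale that takes depth into account, and Day 3 and Day 7 overlapped in the thinned share.

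Of the 15 highest genes of Day 14, 14 had a log2 ratio above 0 on Day 7, each with an interval above 0, and their median over all 15 was 0.97. Over all 5332 genes compared on Day 7, 53.4% lay above 0 and the median was 0.011. On Day 3, 12 of 14 genes with at least 10 UMIs lay above 0, with a median of 2.07, against 53.7% of 5651 genes. *Cxcl10* stood at 579 against 187 CPM on Day 7 and 948 against 128 CPM on Day 3, and *Gbp2* at 77.3 against 29.2 CPM and 134 against 23.5 CPM. *Ifit1* was at 60.8 against 13.4 CPM on Day 7 and at 303 against 73.3 CPM on Day 3, where *Cxcl9*-zero cells thus held more *Ifit1* than the members of Day 14. *B2m* was at 539 against 298 CPM on Day 3 (log2 0.85) and at 530.1 against 469 CPM on Day 7 (log2 0.18). The guanylate-binding proteins summed to 418 against 90.8 CPM for Day 3, 195 against 85.5 CPM for Day 7 and 253 against 103 CPM for Day 14.

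**Figure D3:**
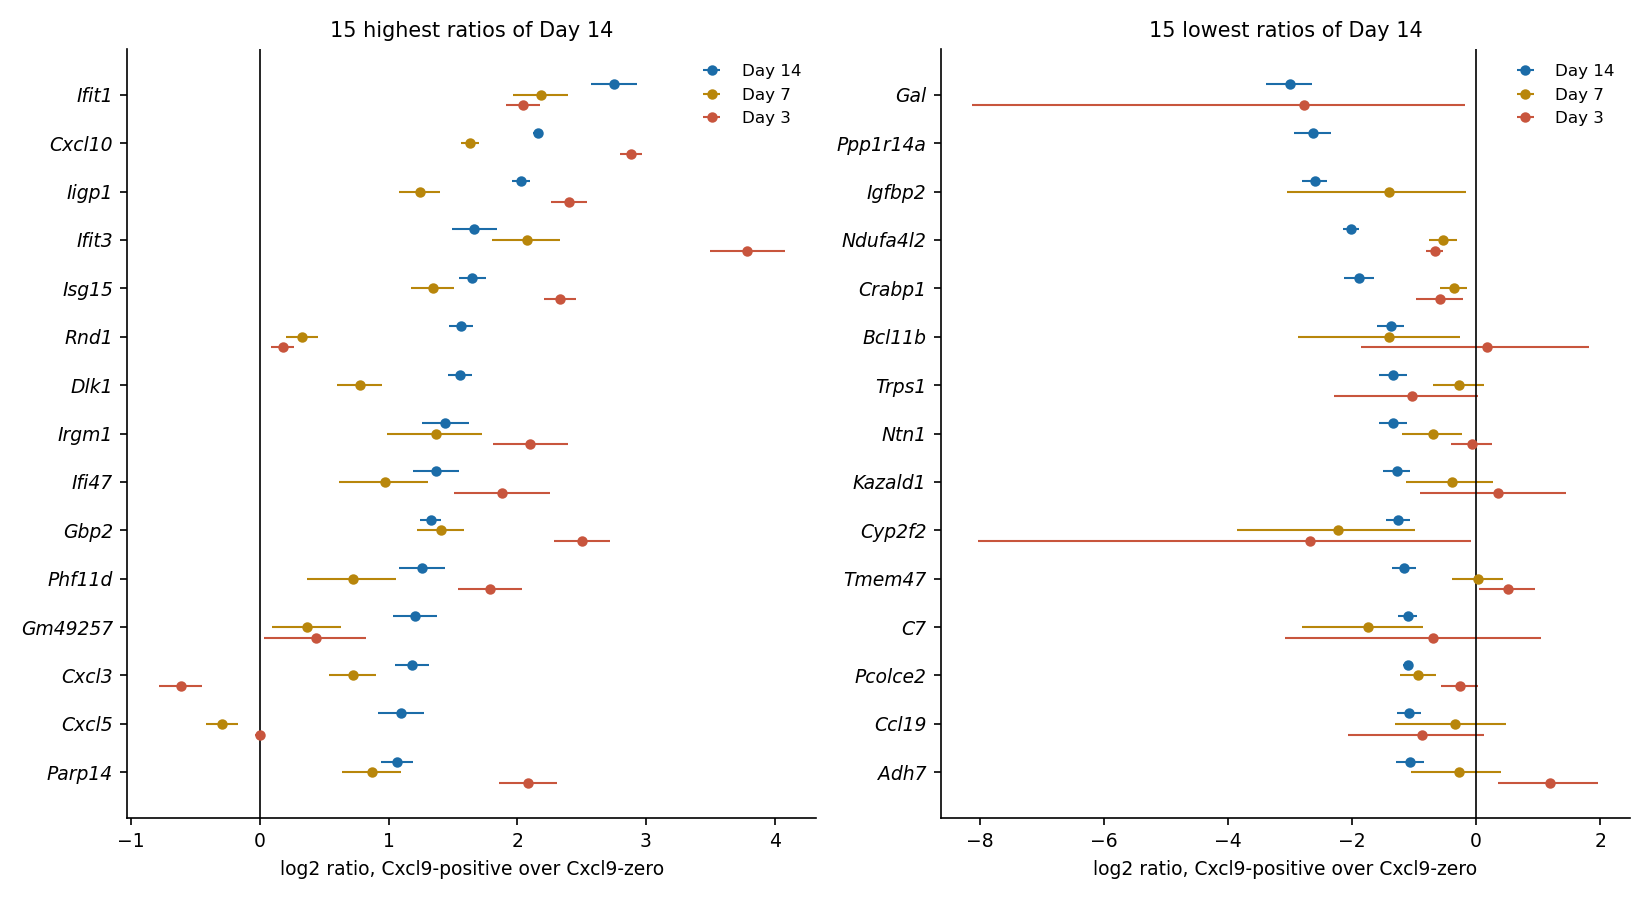
Log2 ratio of CPM in *Cxcl9*-positive over *Cxcl9*-zero fibroblasts (horizontal axis) for the 15 highest and the 15 lowest genes of Day 14, with 95% counting intervals, in the 3 libraries, leaving out values from under 10 UMIs or with a group at 0. Most interferon-stimulated genes lie above 0 on all 3 days, whereas *Rnd1* is at 1.56 for Day 14, 0.33 for Day 7 and 0.18 for Day 3.

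Inflammatory genes had mostly smaller ratios in the earlier libraries, where the difference between days was not tested. The NF-kB list had a median log2 ratio of 0.37 for Day 14, 0.12 for Day 7 and -0.07 for Day 3. These medians cover 21, 23 and 25 genes in turn, so they do not follow the same genes. Members chosen by 2 UMIs also differed in *Cxcl9* level, at 721, 377 and 219 CPM on Days 14, 7 and 3. *Ccl2* was an exception on Day 3, at 1754 against 882 CPM (log2 0.99, and 0.91 on Day 14), but not on Day 7, at 975 against 766 CPM (log2 0.35). *Il6* stood at 348 against 253 CPM on Day 7 (log2 0.46) and 1824 against 1786 CPM on Day 3 (log2 0.03, interval -0.01 to 0.07). *Cxcl1* was at 2660.4 against 2019 CPM on Day 7 and 3171 against 2905 CPM on Day 3. *Rnd1* was at 151 against 120.2 CPM on Day 7 and 458 against 406 CPM on Day 3. *Dlk1* was at 79.2 against 46.3 CPM on Day 7 and had 5 UMIs in all on Day 3. Of the 15 lowest genes, 14 lay below 0 on Day 7, 9 of them with the interval below 0, against 46.6% of all genes below 0, and the median was -0.69 with genes at 0 in members ranked lowest. On Day 3 10 of 14 lay below 0, 4 with the interval below 0 and 2 with it above, against 46.3% of all genes. Several were scarcely present that early: *Gal* had 27 UMIs and *Ppp1r14a* 120 UMIs in the reference of Day 7, and each had 0 in members.

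Within the Day 14 library, *Cxcl9* belonged mainly to mesenchymal cells. The other classes were cells with UMIs in at least 3 of their fixed markers, fewer than 3 in any other class and under 0.5% fibroblast gene UMIs. Gated fibroblasts stood at 135 CPM of *Cxcl9* and 221 pericyte-like cells at 153 CPM (interval 129 to 179). The 133 endothelial cell-like cells stood at 32.5 CPM (22.3 to 45.9), 2448 macrophage-like cells at 23.8 CPM (21.1 to 26.9), and 98 T and NK cell-like cells at 6.45 CPM (0.781 to 23.3). The 455 epithelial cell-like cells had 3.11 CPM (1.49 to 5.71), and after thinning 0.440% of them held a *Cxcl9* UMI, against 2.002% of macrophage-like cells and 10.3% of gated fibroblasts, at median depths of 6257, 4125.5 and 10578.5 UMIs. The epithelial share was far below that of fibroblasts, but this class held only cells with under 0.5% fibroblast gene UMIs. Cells carrying more free fibroblast RNA were thus left out of it, so the share is no measure of that background. The part of free RNA in the *Cxcl9* counts was not tested.

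**Figure D4:**
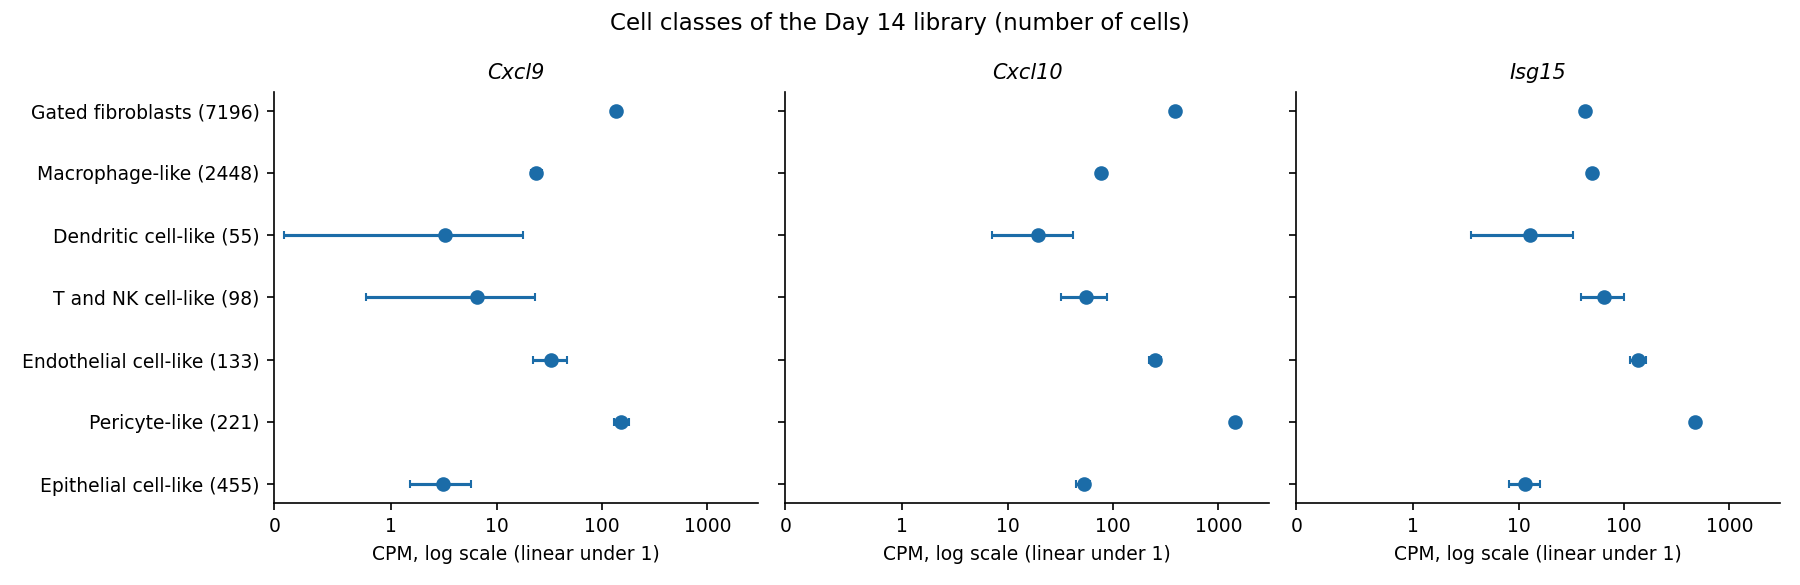
CPM of *Cxcl9*, *Cxcl10* and *Isg15* (horizontal axis, log scale above 1) in gated fibroblasts and in 6 other cell classes of the Day 14 library, with exact Poisson intervals for counting error. *Cxcl9* is at 135 CPM in fibroblasts and 153 CPM in pericyte-like cells, and *Isg15* is at 42.9 CPM in fibroblasts and 469 CPM in pericyte-like cells.

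Pericyte-like cells also exceeded the fibroblasts as a whole in *Cxcl10*, at 1429 against 389 CPM, *Iigp1*, at 903 against 100.1 CPM, and *Isg15*, at 469 against 42.9 CPM. These levels were also above those of the *Cxcl9*-positive fibroblasts, at 1019.7, 257 and 95.4 CPM. Endothelial cell-like cells were higher still in *Iigp1*, at 1100.5 CPM, and stood at 136 CPM of *Isg15*. *Ifng* was seen in 5 of 98 T and NK cell-like cells (5 UMIs, 16.1 CPM, interval 5.23 to 37.6), in 1 of 2448 macrophage-like cells and in 0 of the pericyte-like and endothelial cell-like cells, where 3 counts would be 3.05 CPM in each. *Cxcr3*, the receptor of both chemokines, was highest in T and NK cell-like cells at 35.5 CPM (17.7 to 63.5), with 2.56 CPM in macrophage-like cells and 0.176 CPM in fibroblasts.

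Markers of other cell types were present in many members and in many reference cells. A macrophage marker was seen in 47.4% of members and 44.4% of the reference, a pericyte marker in 53.9% and 51.4%, and an epithelial marker in 60.1% and 52.4%. Leaving out cells with markers of other classes left 297 of the 1011 members. Cells with UMIs of the pericyte marker *Ndufa4l2* were still kept, so the cells left were not free of all such markers. The 8 macrophage markers summed to 167 CPM in members and 152 CPM in the reference, the 8 T and NK cell markers to 7.85 and 6.04 CPM, the 6 endothelial markers to 16.1 and 16.9 CPM, the 6 epithelial markers to 232 and 214 CPM, the 6 dendritic cell markers to 8.50 and 9.07 CPM, the 5 neutrophil markers to 0.721 and 0.886 CPM and the 4 B cell markers to 0.865 and 0.815 CPM. The 5 pericyte markers summed to 136 and 214 CPM, and without *Ndufa4l2* the other 4 summed to 99.4 and 67.5 CPM, each higher in members. The part of pericyte RNA in the differences was not tested. The 4 mast cell markers were lower, at 1.59 and 7.81 CPM. *Retnlg* and *Ms4a1* were at 0 in members. Of the 42 *Cd3g* UMIs of members, 40 were in 1 cell. A doublet score called 274 members (27.1%, interval 24.4 to 29.96) and 790 reference cells (14.4%, 13.5 to 15.4), and called cells were deeper, at medians of 16228.5 and 13234 UMIs. Without the called cells 31 genes were 2-fold higher and 28 lower, and 14 of the 15 highest and 11 of the 15 lowest genes were again among the first 15. The part of doublets and of depth in the differences beyond these values was not tested.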

How the data were processed

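Droplet scRNA-Seq libraries of wound tissue, 1 each for Days 3, 7 and 14, were read as the authors deposited them: UMI counts per gene and cell barcode, whole numbers that were not normalised. Per the submitters' processing notes, reads were processed with Cell Ranger 6.0.0 and the mm10 build, and for the annotation release and cell filters the sources used here name none. The labels name no batch. Of 32285 gene IDs, 32158 were matched to a symbol.

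UMIs were summed over the cells of a group and divided by the group's total to give CPM. Intervals at 95%, covering counting error only, were exact conditional binomial for ratios, exact Poisson for levels and Clopper-Pearson for shares. The ratio code was tested on simulated data. Genes with a mean of at least 20 CPM over both groups were compared, and called at 2-fold. Because 1 library stood for each day, no test between groups was run. For shares of cells, each cell was thinned to 2000 UMIs at random. Doublets were scored against simulated doublets in 50 nearest neighbours, and called cells were kept except where stated. Named genes were the 15 highest and 15 lowest ratios, the 10 highest on no list, and members of 18 gene lists. Members and lists were chosen with earlier results of these data known. Promoter windows of 300 bases came from RefSeq. Python 3.11.15, numpy 2.4.6, scipy 1.17.1, scikit-learn 1.9.0 and matplotlib 3.10.9 were used. Another *Cxcl9* minimum, other cell filters, scalings and CPM limits were tried as alternatives. Some genes are not reported here.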

Additional observations from a re-analysis of the deposited data

Results flagged for a closer look

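For 4 of the 30 named genes the log2 ratio of *Cxcl9*-positive over *Cxcl9*-zero fibroblasts had the opposite sign in another library, with a counting interval that lay wholly on that side of 0. Other genes had the opposite sign with an interval that held 0. *Cxcl3* had a log2 ratio of -0.61 on Day 3 and 1.19 on Day 14, and *Cxcl5* one of -0.29 on Day 7 and 1.10 on Day 14. *Tmem47* stood at 0.51 on Day 3 and -1.16 on Day 14, and *Adh7* at 1.18 on Day 3 and -1.06 on Day 14. The difference between days was not tested, as each day had 1 library.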

How the results depend on the processing

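The 30 genes with the highest and lowest ratios were recomputed under 15 settings: of 450 values, 309 moved by less than the counting interval, 140 moved by more and 1 changed sign, *Ccl19*, at 0.0016 on the log2 scale when cells with markers of other classes were left out. In that setting, with the CPM limit applied again, 11 of the 15 highest and 2 of the 15 lowest genes were again among the first 15. No paired analysis was possible because each day had 1 library. A minimum of 1 *Cxcl9* UMI gave 1711 members, 9 genes higher and 12 lower, and medians of 0.86 for guanylate-binding proteins, 1.61 for immunity-related GTPases, which was *Iigp1* alone (2.03 with 2 UMIs), 0.44 for type I effectors and 0.29 for NF-kB genes. The genes of a list past the CPM limit change with the setting, so these medians do not follow the same genes. A minimum of 5 UMIs gave 532 members, 51 genes higher, and medians of 1.74, 1.79, 0.86 and 0.51 for the same lists, 0.38 for MHC class I and 0.036 for matrix genes. Members chosen after thinning had medians of 1.49 for guanylate-binding proteins and 0.24 for MHC class I. Without doublet calls, guanylate-binding proteins were at 1.29 and matrix genes at 0.16. Without cells carrying markers of other classes, 297 members were left and 9 genes past the CPM limit were lower. Cells with UMIs of the pericyte marker *Ndufa4l2* were still kept in this setting. The medians were then 1.30 for guanylate-binding proteins, 1.71 for immunity-related GTPases, 0.24 for MHC class I and -0.030 for matrix genes, the last with the opposite sign. Scaling without the 50 most abundant genes moved the median of all genes to -0.025, gave 14 higher and 22 lower genes (38.9% of calls higher, against 52.4%), and medians of 0.30 for NF-kB genes, 0.12 for MHC class I and 0.058 for matrix genes. Matrix genes were at 0.083 with the median of ratios and 0.084 with the reference weighted to the depth of members, and NF-kB genes at 0.46 with the mean CPM of each cell. A limit of 50 CPM left 8 higher and 5 lower genes, with 1.33 and 2.03 for guanylate-binding proteins and immunity-related GTPases, which are *Gbp2* and *Iigp1* alone and as before, and a median of 0.51 for type I effectors. A limit of 5 CPM gave 43 higher and 83 lower genes and 1.30 for guanylate-binding proteins. At 1.5-fold, 92 genes were higher and 52 lower. Leaving out the cells with 2 of 4 marker genes, chosen after seeing the data, left 2 lower genes past the CPM limit and 0.24 for MHC class I. The cause of these shifts was not tested. Depth limits what can be said of genes under 20 CPM, of interferon transcripts, and of the 51 members of Day 3.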
